A study of Mus musculus and Homo sapiens with 81 samples.

Results

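The 5 human guanylate-binding protein genes GBP1, GBP2, GBP3, GBP4 and GBP5 were followed across 4 human cancer cell lines given interferon gamma (IFNg) or vehicle. They were taken by gene symbol from the deposited count tables, in which each name stood for 1 of 23227 rows, by a rule that uses no measured value. The lines were A375 and MelJuSo, both melanoma lines, A549, a lung cancer line, and HT29, a colon cancer line. All cells expressed the nuclease Cas9 and carried 1 guide RNA, either against PTPN2 (Ptpn2-null in the labels) or the non-targeting Bro4 (control). They were cultured for 48 h with 100 ng/mL IFNg or with the vehicle, PBS holding bovine serum albumin. This gave 4 groups a line: Ptpn2-null under IFNg, control under IFNg, Ptpn2-null under vehicle and control under vehicle. Groups held 3 libraries in A375 and MelJuSo, apart from 2 for A375 control under vehicle, and 2 libraries in A549 and HT29, 39 libraries of poly(A) RNA in all. Each genotype rested on 1 guide a line, so loss of the target and anything else particular to those guide-bearing cells cannot be told apart. Nothing in the labels ties replicates to separate cultures. The p-values therefore reflect the spread among these libraries, which may be technical, and in such bulk RNA fewer expressing cells and less RNA per cell cannot be told apart.

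Guanylate-binding proteins are large interferon-inducible GTPases of the dynamin superfamily, made in most cell types when IFNg acts on its receptor, the kinases JAK1 and JAK2, and downstream transcription factors such as IRF1. They assemble on bacteria, parasite vacuoles and membranes in the cytosol. GBP1 coats cytosolic Gram-negative bacteria and binds their lipopolysaccharide, GBP2, GBP3 and GBP4 are recruited to that coat, which activates caspase-4, and GBP5, like GBP2, lowers the infectivity of HIV by interfering with the protease furin. PTPN2 is a phosphatase that removes phosphate from JAK1 and so dampens IFNg signalling.

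PTPN2 was the check of the labels. In A549 under IFNg it had 18.1 and 20.4 CPM in Ptpn2-null and 38.0 and 30.9 CPM in control libraries, CPM being counts scaled to the size of each library. It was lower in Ptpn2-null libraries of A549, HT29 and MelJuSo under both stimuli, with adjusted p between 6.92e-12 and 0.0028. In A375 it was lower in the libraries labelled Ptpn2-null under IFNg (10.5, 11.9 and 12.7 CPM, against 21.4, 18.1 and 16.2 CPM in control libraries). Under vehicle it went against the labels in A375, with 22.8, 23.6 and 22.7 CPM in the libraries labelled Ptpn2-null and 11.2 and 11.5 CPM in those labelled control (log2 fold change 1.03, adjusted p = 3.02e-11, edgeR quasi-likelihood test). The A375 vehicle groups are therefore named below only as labelled, and the A375 response to IFNg was taken as the mean over both labelled genotypes. The mRNA level does not show loss of the protein.

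**Figure D1:**
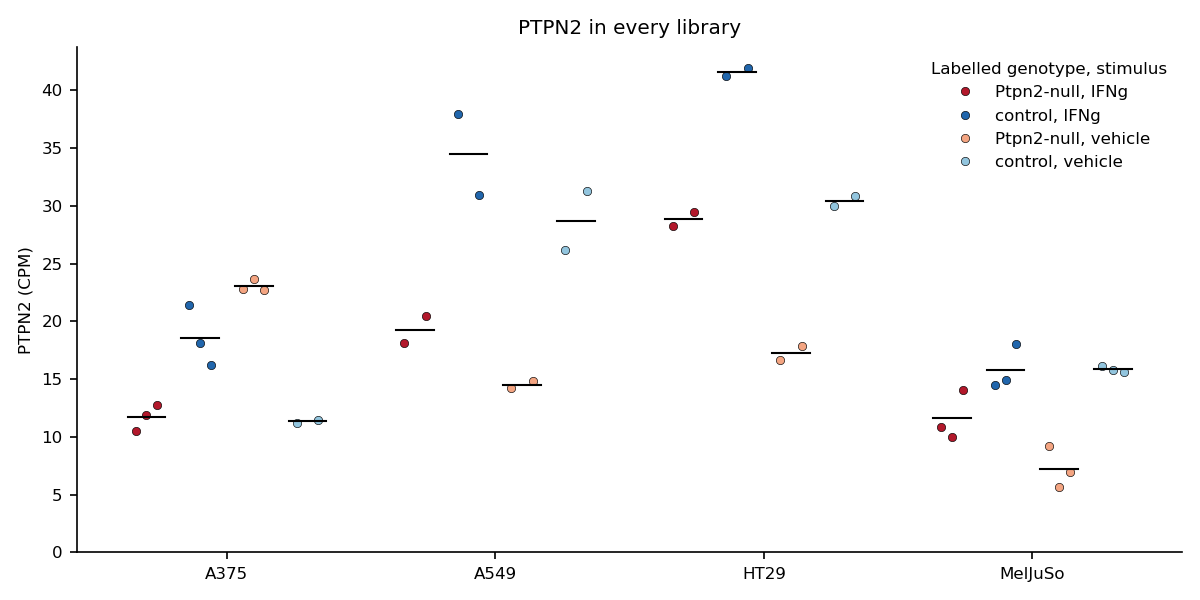
PTPN2 level in CPM (vertical axis) of every library (points) with the group mean (bar), by line and by labelled genotype and stimulus. Ptpn2-null libraries sit below control libraries under the same stimulus except in A375 under vehicle, where the 3 libraries labelled Ptpn2-null (22.7 to 23.6 CPM) sit above the 2 labelled control (11.2 and 11.5 CPM).

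Libraries held 4191317 to 9605776 counts. SOX10, a melanocyte lineage factor, was present in MelJuSo (541 to 661 CPM) and A375 (64.0 to 130 CPM), while the pigment cell genes PMEL and TYR were high in MelJuSo only; in A375 TYR had 1 count over 11 libraries. The keratin gene KRT20, a colon marker, reached 268 to 540 CPM in HT29 and at most 0.968 CPM in the other lines. CDX2 and CDH17, also colon markers, stayed at or under 1.58 CPM in HT29, and CDH17 was higher in A549 (10.6 to 27.6 CPM). For HT29 control IFNg replicate 1 the labels name lung as the cell type although line and title name HT29, and it was kept in HT29. Leukocytes also make these proteins; the sum of 5 leukocyte markers was at most 1.59 CPM in A375 and 1.17 CPM in MelJuSo, 7.76 to 15.2 CPM in A549 and 16.7 to 72.9 CPM in HT29. CD14 (4.30 to 11.1 CPM in A549, 16.2 to 64.0 CPM in HT29) and ITGAM (up to 4.78 CPM in A549 and 9.16 CPM in HT29) made up most of it, while CD3E had 0 counts in every library and PTPRC at most 1.06 CPM. All 5 GBP genes passed the filter on low counts in each line; on the vehicle libraries alone 1 would have passed in MelJuSo, 2 in A549 and 4 in both A375 and HT29, so their presence among the tested genes came in part from the IFNg libraries. GBP1 has a near-identical pseudogene, GBP1P1, and the 5 genes resemble each other in sequence, so how reads were split between them is uncertain.

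Without IFNg the 5 genes were at low levels. GBP3 was the only one with at least 15 counts in every vehicle library, between 2.24 CPM (A375, labelled control) and 32.9 CPM (HT29, Ptpn2-null). GBP5 had 0 to 4 counts in each of the 19 vehicle libraries, and GBP4 had 0 to 3 counts in each vehicle library of A549 and MelJuSo. HT29 Ptpn2-null cells held the highest vehicle levels of GBP2 (30.1 and 29.4 CPM) and GBP4 (21.0 and 21.6 CPM), while the highest vehicle levels of GBP1 were in the A375 libraries labelled control (8.82 and 8.55 CPM).

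Under IFNg the lines differed widely in the level each gene reached. Each of the 5 was highest in HT29 in both genotypes. In control cells the order for GBP1, GBP2 and GBP5 was HT29, A375, A549 and MelJuSo, with no overlap between neighbouring lines: GBP1 averaged 2143 ± 58.8 CPM in HT29, 321.9 ± 9.03 CPM in A375, 92.6 ± 2.54 CPM in A549 and 30.2 ± 0.957 CPM in MelJuSo (SD, n = 2, 3, 2 and 3). GBP3 kept another order, HT29, A549, MelJuSo and A375 (205 ± 6.67, 75.6 ± 0.482, 24.5 ± 1.09 and 15.8 ± 0.492 CPM), so A375, second for GBP1, was lowest for GBP3. GBP4 in control cells also spanned a wide range among the lines, 3515 ± 20.8 CPM in HT29 against 1.32 ± 0.549 CPM in MelJuSo. In Ptpn2-null cells GBP2 could not be ordered between A549 (48.8 and 45.0 CPM) and MelJuSo (49.3, 47.5 and 43.4 CPM), whose libraries overlapped. The 5 genes together took 0.758% to 0.769% of all counts in HT29 Ptpn2-null libraries under IFNg and 0.650% to 0.656% in HT29 control libraries, against 0.0290% to 0.0319% in MelJuSo Ptpn2-null and 0.0070% to 0.0071% in MelJuSo control libraries.

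**Figure D2:**
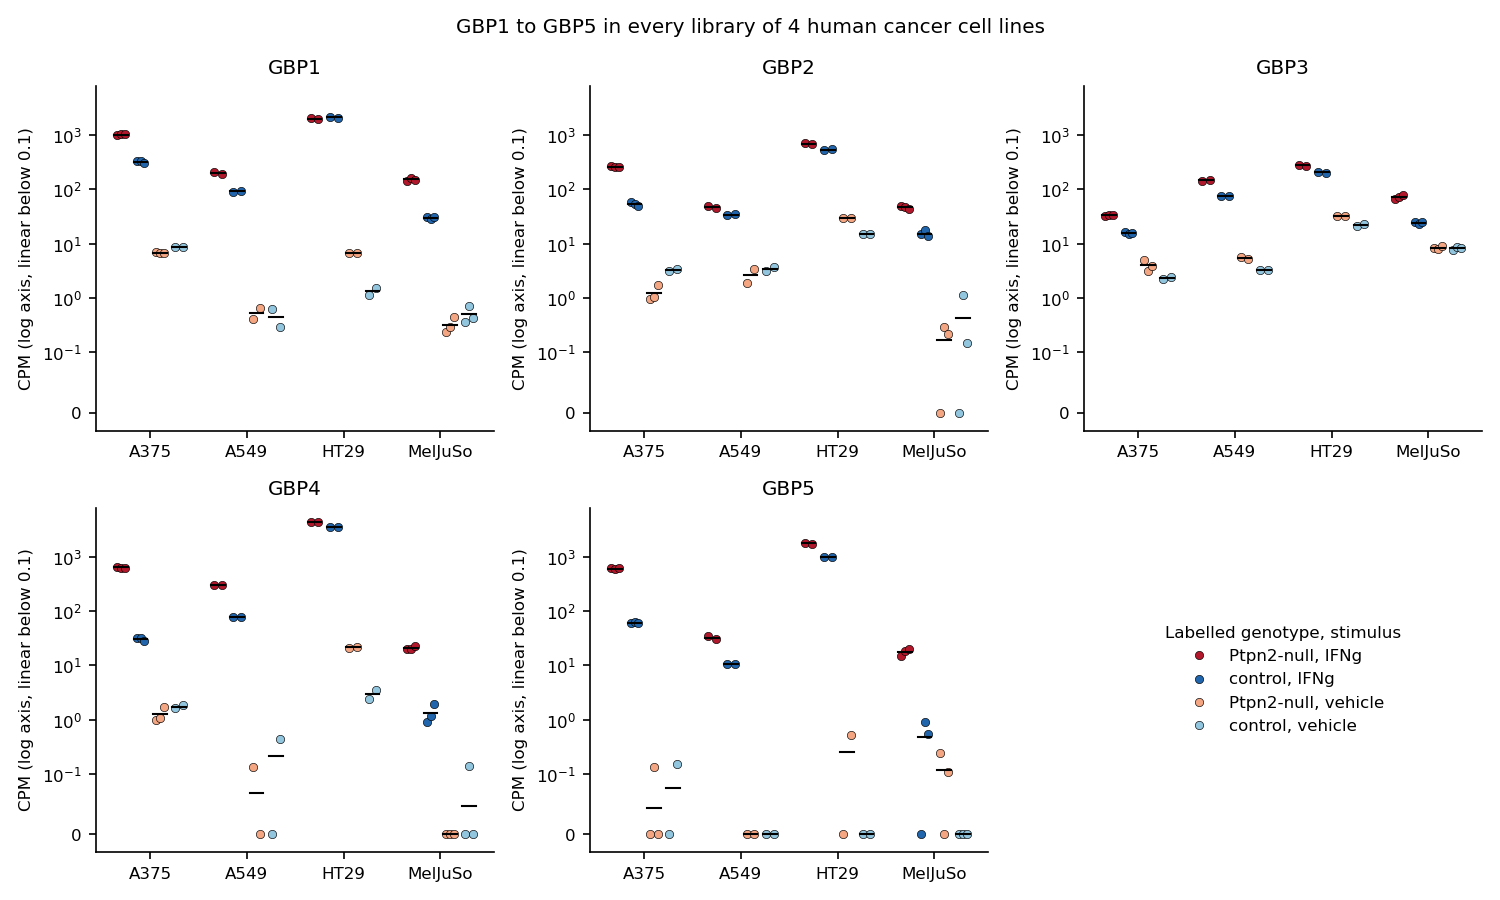
Levels of GBP1 to GBP5 in CPM (vertical log axis, linear below 0.1) in all 39 libraries (points) with group means (bars), by line, labelled genotype and stimulus. Each gene was highest in HT29 under IFNg, GBP5 lay near 0 in all vehicle libraries, and the IFNg and vehicle libraries of GBP3 lay closest in MelJuSo control cells.

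The first comparison asked how each gene responded to IFNg. All 5 were called higher under IFNg in A549, HT29 and MelJuSo in both genotypes and in A375 over both labelled genotypes (edgeR quasi-likelihood F test, adjusted p under 0.05). The share of all tested genes called was 53.5% in A549 Ptpn2-null and 47.6% in A549 control cells, 67.8% in HT29 Ptpn2-null and 59.4% in HT29 control cells, 54.6% in MelJuSo Ptpn2-null and 11.5% in MelJuSo control cells, and 72.2% in A375. Here and below, such shares of all tested genes count calls in either direction. Several of the 5 genes entered the test through their IFNg libraries, which had to differ from the vehicle libraries. The calls of the 5 genes are therefore a description.

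GBP1 in A549 had 1692 and 1388 counts under IFNg and 3 and 4 counts under vehicle in Ptpn2-null cells, and 655 and 635 counts under IFNg and 4 and 2 counts under vehicle in control cells. That was a log2 fold change of 8.58 ± 0.54 (SE) in Ptpn2-null and 7.65 ± 0.59 in control cells. In HT29 control cells GBP1 had 14524 and 14136 counts under IFNg and 8 and 12 under vehicle, a log2 fold change of 10.65 ± 0.29 (adjusted p = 1.81e-67). In MelJuSo control cells the GBP1 response was 5.89 ± 0.43 (30.7, 29.1 and 30.7 CPM under IFNg, against 0.356, 0.710 and 0.438 CPM under vehicle; adjusted p = 1.55e-48).

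GBP2, which is attached to membranes by a geranylgeranyl group, had smaller fitted responses than GBP1 in both genotypes of A549 and HT29, a contrast between genes that was not tested. Its log2 fold change was 4.20 ± 0.26 in A549 Ptpn2-null and 3.32 ± 0.23 in A549 control cells, and 4.55 ± 0.069 in HT29 Ptpn2-null and 5.19 ± 0.095 in HT29 control cells. In MelJuSo it was 7.77 ± 0.79 in Ptpn2-null and 5.21 ± 0.53 in control cells, where 1 of the 3 vehicle libraries held 8 of the 9 counts. GBP3, which had 35 to 82 counts in each MelJuSo vehicle library, had the smallest fold change of the 5 in HT29 and MelJuSo. It went to 67.4, 73.8 and 78.3 CPM under IFNg in MelJuSo Ptpn2-null cells, against 8.46, 8.09 and 9.03 CPM under vehicle (3.09 ± 0.12, adjusted p = 3.78e-53), and to 24.6, 23.3 and 25.5 CPM in control cells, against 7.70, 8.66 and 8.18 CPM (1.59 ± 0.13, adjusted p = 5.58e-22). In each group of MelJuSo and A549 the IFNg and vehicle libraries of GBP3 stood well apart.

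GBP4 and GBP5 had many counts under IFNg and few or none under vehicle in most groups, so several of their changes can be given only as count ratios or bounds. In A549 the count of GBP4 per effective library size was 3975 times as high under IFNg as under vehicle in Ptpn2-null cells (1 vehicle count, 95% exact binomial interval 713 to 157037) and 346 times as high in control cells (3 vehicle counts, 118 to 1678). GBP5 in A549 was at least 145-fold higher under IFNg in Ptpn2-null cells and at least 47.5-fold higher in control cells, taken against a floor of 3 counts over the vehicle group. In HT29 control cells GBP5 had 6587 and 6694 counts under IFNg and 0 in both vehicle libraries, at least 4877-fold higher, and GBP4 had 23270 and 23742 counts against 17 and 27 (log2 fold change 10.24 ± 0.19, adjusted p = 6.66e-70). These intervals and floors cover counting error only.

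In MelJuSo control cells GBP4 and GBP5 were barely detected even with IFNg. GBP4 had 6, 9 and 14 counts under IFNg and 0, 1 and 0 under vehicle, a ratio of 29.6 (95% interval 4.91 to 1210.1, adjusted p of the fit 6.68e-06). GBP5 had 0, 7 and 4 counts under IFNg and 0 in each vehicle library, at least 3.75-fold higher (adjusted p = 0.0059), and its groups overlapped because 1 IFNg library held no count. Without control IFNg replicate 2 the GBP5 call was lost (adjusted p = 0.082). In MelJuSo Ptpn2-null cells the same genes had 149, 156 and 137 counts (GBP4) and 110, 139 and 118 counts (GBP5) under IFNg, against 0, 0 and 0 counts and 1, 0 and 1 counts under vehicle.

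In A375 the response over both labelled genotypes was 6.23 ± 0.087 for GBP1, 5.87 ± 0.18 for GBP2, 2.91 ± 0.16 for GBP3 and 6.55 ± 0.20 for GBP4 on the log2 scale. Against the vehicle libraries labelled Ptpn2-null alone, GBP1 gave 6.40, GBP2 6.55, GBP3 2.52 and GBP4 6.78, and against those labelled control alone GBP1 gave 6.06, GBP2 5.19, GBP3 3.30 and GBP4 6.33. The direction was the same against either vehicle group, and the size moved most for GBP2. GBP5 had 2 counts over the 5 vehicle libraries, against 3387 to 4661 counts a library in Ptpn2-null and 371 to 511 counts a library in control cells under IFNg, a ratio of 5528 over both (95% interval 1530.1 to 45655).

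**Figure D3:**
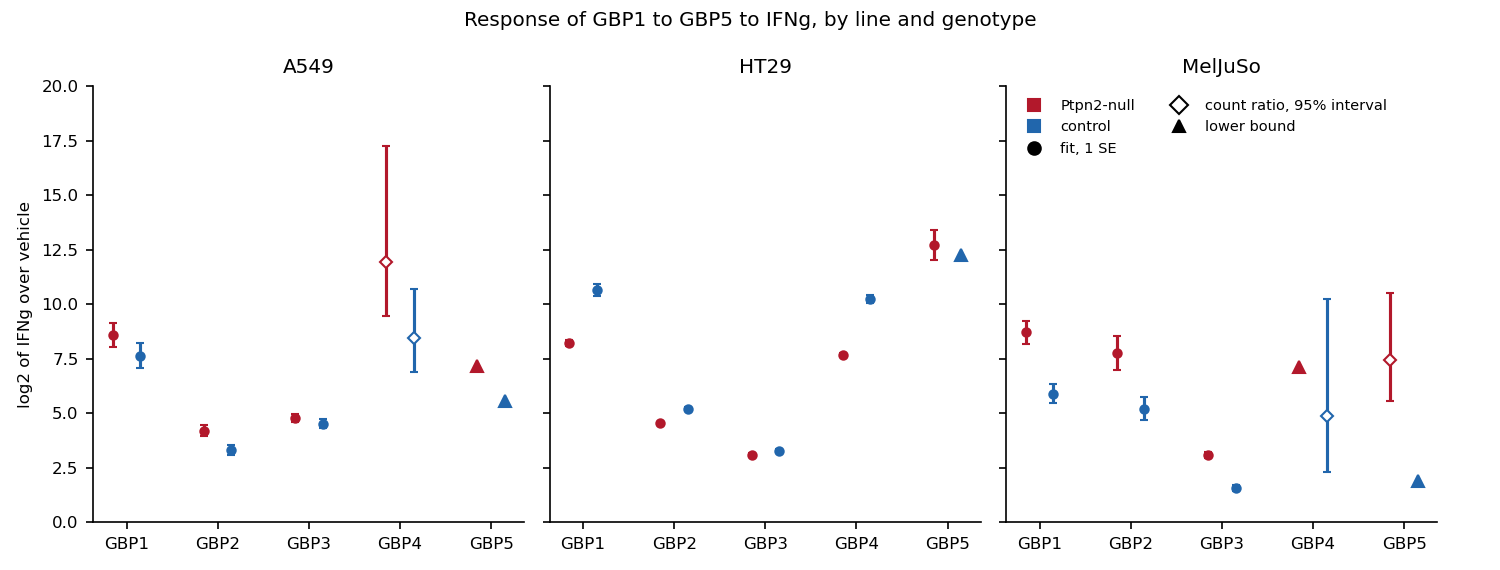
Response to IFNg as the log2 of IFNg over vehicle (vertical axis) for GBP1 to GBP5 in A549, HT29 and MelJuSo, with Ptpn2-null left of control. Circles are fitted log2 fold changes with 1 SE, open diamonds are count ratios with a 95% interval where a vehicle group held 1 to 3 counts, and triangles are lower bounds where it held 0. GBP3 responded less than GBP1 in each of the 3 lines, and the responses of GBP1 and GBP4 were smaller in Ptpn2-null than in control cells of HT29.

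The second comparison set Ptpn2-null against control cells under IFNg. GBP2, GBP3, GBP4 and GBP5 were called higher in Ptpn2-null cells in all 4 lines, and GBP1 was called higher in A375, A549 and MelJuSo and called lower in HT29. The share of tested genes called in either direction was 24.3% in A549, 41.9% in HT29, 50.8% in A375 and 51.2% in MelJuSo. The median log2 change of the 5 genes was 0.33 in HT29, 1.12 in A549, 2.29 in A375 and 2.35 in MelJuSo, where the medians of all tested genes lay between -0.0085 and 0.0063. In MelJuSo GBP4 and GBP5 passed the filter on low counts only through the Ptpn2-null IFNg libraries, the group where they were high. Their MelJuSo calls and their part in the MelJuSo median are therefore a description.

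GBP1 in MelJuSo reached 144, 165 and 148 CPM in Ptpn2-null libraries, against 30.7, 29.1 and 30.7 CPM in control libraries. Every Ptpn2-null library lay above every control library, a log2 fold change of 2.35 ± 0.070 (adjusted p = 9.38e-59). In A375 it had 994, 1029 and 1050 CPM in Ptpn2-null and 327, 327 and 311 CPM in control libraries (1.68 ± 0.028, adjusted p = 1.96e-127), and in A549 209 and 192 CPM in Ptpn2-null and 90.8 and 94.4 CPM in control libraries (1.12 ± 0.056, adjusted p = 6.83e-89). In HT29 it had 2049 and 1985 CPM in Ptpn2-null and 2185 and 2101 CPM in control libraries. The HT29 groups did not overlap but lay close, and the fitted difference was -0.12 ± 0.034 (adjusted p = 0.0020). The CPM are scaled over all 39 libraries and the fit over HT29 alone. On the scale of the CPM the ratio of counts was 0.943, against a fitted ratio of 0.918. Without HT29 control IFNg replicate 1, the library with the lung cell type label, the fitted difference was -0.083 and the HT29 call was lost. That fit left 1 control library under IFNg. KRT20 was at least 268 CPM in every HT29 library, this one included.

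GBP2 was raised most in A375, with 268, 253 and 261 CPM in Ptpn2-null libraries against 57.9, 52.9 and 49.5 CPM in control libraries (log2 fold change 2.29 ± 0.051, adjusted p = 2.61e-110). In MelJuSo it had 49.3, 47.5 and 43.4 CPM in Ptpn2-null and 14.9, 17.7 and 13.7 CPM in control libraries (1.61 ± 0.11, adjusted p = 3.56e-24). A549 and HT29 showed smaller differences, still without overlap: 48.8 and 45.0 CPM in Ptpn2-null and 33.3 and 35.2 CPM in control libraries of A549 (0.46 ± 0.097, adjusted p = 2.0e-05), and 701 and 680 CPM in Ptpn2-null and 522 and 550 CPM in control libraries of HT29 (0.33 ± 0.038, adjusted p = 1.21e-10). By DESeq2 the A549 difference missed the threshold (adjusted p = 0.070).

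GBP3, which takes part in the coat formed by GBP1 on bacteria, varied least among the lines. It had 67.4, 73.8 and 78.3 CPM in Ptpn2-null and 24.6, 23.3 and 25.5 CPM in control libraries of MelJuSo (1.59 ± 0.081, adjusted p = 1.01e-36), and 32.7, 34.3 and 33.1 CPM in Ptpn2-null and 16.3, 15.3 and 15.9 CPM in control libraries of A375 (1.08 ± 0.10, adjusted p = 1.15e-20). In A549 it had 145 and 150 CPM in Ptpn2-null and 75.3 and 76.0 CPM in control libraries (0.97 ± 0.063), and in HT29 277 and 274 CPM in Ptpn2-null and 210 and 201 CPM in control libraries (0.39 ± 0.050, adjusted p = 2.31e-09). None of these groups overlapped.

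GBP4 and GBP5 showed the 2 largest differences of the 5 genes in A375, A549 and MelJuSo. GBP4 had 653, 614 and 625 CPM in Ptpn2-null and 31.6, 32.2 and 28.2 CPM in control libraries of A375, a log2 fold change of 4.36 ± 0.059 (adjusted p = 1.70e-167) that 34 of the 13410 tested genes exceeded. In A549 it had 294 CPM in both Ptpn2-null libraries and 78.9 and 76.5 CPM in control libraries (1.92 ± 0.056, adjusted p = 4.55e-285), and in MelJuSo 19.8, 20.2 and 23.0 CPM in Ptpn2-null and 0.885, 1.15 and 1.94 CPM in control libraries (3.97 ± 0.29, adjusted p = 3.06e-34). The MelJuSo value is a description, as GBP4 passed the filter there only through these Ptpn2-null libraries. In HT29 GBP4 had 4353 and 4316 CPM in Ptpn2-null and 3500.1 and 3529.5 CPM in control libraries (0.27 ± 0.032, adjusted p = 4.84e-10).

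GBP5 in MelJuSo had 14.6, 18.0 and 19.8 CPM in Ptpn2-null and 0, 0.892 and 0.554 CPM in control libraries, a log2 fold change of 5.07 ± 0.47 (adjusted p = 8.34e-32) that 10 of the 12271 tested genes exceeded. GBP5 passed the filter there only through these Ptpn2-null libraries, so its adjusted p and its rank are a description. As counts this was 367 over the 3 Ptpn2-null libraries and 11 over the 3 control libraries, a ratio of 34.4 (95% interval 19.0 to 69.5). In A375 it had 604, 599 and 605 CPM in Ptpn2-null and 60.9, 61.6 and 58.9 CPM in control libraries (3.32 ± 0.046, adjusted p = 1.79e-155), and in A549 34.0 and 30.1 CPM in Ptpn2-null and 10.7 CPM in both control libraries (1.59 ± 0.15, adjusted p = 2.62e-27). HT29 showed 1769 and 1711 CPM in Ptpn2-null and 991 and 995 CPM in control libraries (0.77 ± 0.037, adjusted p = 2.03e-25), the largest HT29 difference of the 5 genes. The summed leukocyte markers also differed in HT29 under IFNg, at 68.2 and 72.9 CPM in Ptpn2-null and 25.9 to 26.8 CPM in control libraries, mostly from CD14, while PTPRC and CD3E had 2 and 0 counts over the 8 HT29 libraries. In A549 under IFNg that sum was 14.2 to 15.2 CPM in Ptpn2-null and 7.76 to 8.32 CPM in control libraries. In MelJuSo the summed melanocyte markers were 3209 to 3502 CPM in Ptpn2-null and 4288 to 4471 CPM in control libraries under IFNg. The part of these differences in the GBP results was not tested.

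**Figure D4:**
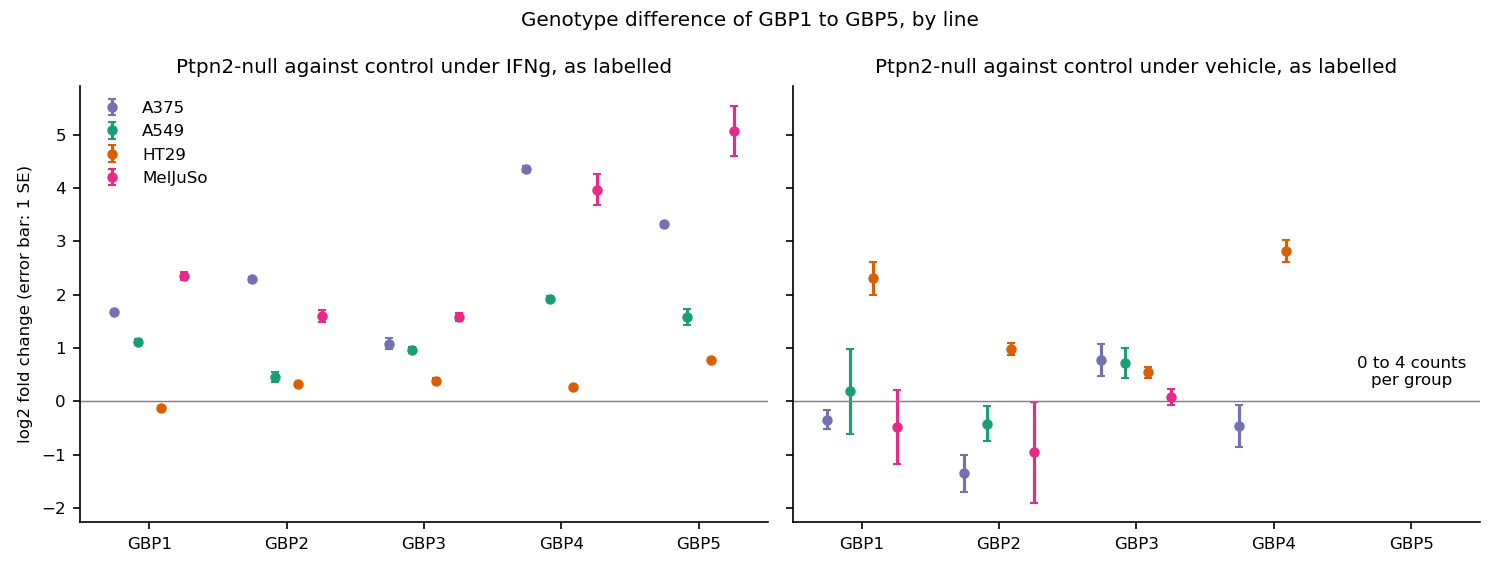
Log2 fold change of Ptpn2-null against control, as labelled (vertical axis, error bars 1 SE), for GBP1 to GBP5 in each line under IFNg (left) and under vehicle (right). Under IFNg all points but GBP1 in HT29 lie above 0, and the A375 and MelJuSo points of GBP4 and GBP5 lie highest. Genes whose groups held too few counts under vehicle are not drawn.

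Whether this genotype difference under IFNg was the same in the 4 lines was tested in 1 fit over all 39 libraries. All 5 genes were called, as were 55.5% of the 15322 genes tested. The F value, with 3 degrees of freedom, was 1534 for GBP4 (adjusted p = 5.82e-195), 644 for GBP1 (3.31e-138) and GBP5 (1.13e-127), 293 for GBP2 (1.55e-87) and 55.8 for GBP3 (4.60e-28). The response to IFNg over both genotypes also differed among the lines for GBP1 (F = 133), GBP2 (F = 31.7), GBP3 (F = 78.2) and GBP4 (F = 29.4), 4 of the 5 genes, against 75.4% of all tested genes. GBP5 missed the threshold in edgeR (F = 1.27, adjusted p = 0.339), where few vehicle counts were available, and passed it in DESeq2 (adjusted p = 1.03e-05). Without A375 the GBP4 difference in response was lost in edgeR (F = 1.89, adjusted p = 0.238). This response is a mean over both labelled genotypes, so the doubtful A375 vehicle labels do not enter it. GBP4 also had few vehicle counts a group in A549 (1 in Ptpn2-null, 3 in control) and MelJuSo (0 in Ptpn2-null, 1 in control). Single pairs of lines were not tested.

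Under vehicle HT29 had the most calls of a genotype difference for these genes. There GBP1 had 6.90 and 6.68 CPM in Ptpn2-null and 1.14 and 1.55 CPM in control libraries, and GBP4 had 21.0 and 21.6 CPM in Ptpn2-null and 2.42 and 3.50 CPM in control libraries. The Ptpn2-null libraries lay above the control libraries for both, with log2 fold changes of 2.31 ± 0.32 (adjusted p = 6.87e-10) and 2.82 ± 0.20 (adjusted p = 2.94e-21). GBP2 was 0.98 ± 0.11 higher (30.1 and 29.4 CPM in Ptpn2-null, 15.3 and 14.9 CPM in control libraries) and GBP3 0.54 ± 0.10 higher (32.9 and 31.7 CPM in Ptpn2-null, 21.0 and 23.2 CPM in control libraries). GBP5, with 0 and 4 counts in Ptpn2-null and 0 and 0 counts in control libraries, was not called (adjusted p = 0.092). These 4 calls of 5 stood beside 21.1% of all tested genes. The summed leukocyte markers were 29.6 to 31.0 CPM in Ptpn2-null and 16.7 to 19.0 CPM in control libraries of HT29 under vehicle, which was not tested either.

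In A549 and MelJuSo under vehicle none of the 5 genes was called by edgeR, nor by DESeq2, at background shares of 2.95% and 1.64% of tested genes. At an unadjusted p under 0.05 there was 1 member in A549 and 0 in MelJuSo. The A549 member was GBP3, which had 5.60 and 5.33 CPM in Ptpn2-null and 3.25 and 3.34 CPM in control libraries, without overlap (log2 fold change 0.72 ± 0.28, adjusted p = 0.139). In MelJuSo GBP3 had 8.46, 8.09 and 9.03 CPM in Ptpn2-null and 7.70, 8.66 and 8.18 CPM in control libraries, which overlapped (0.081 ± 0.16). For GBP1, GBP4 and GBP5 in both lines, and GBP2 in MelJuSo, the vehicle counts were too few for a difference to be detectable unless it was large. GBP1 in A549 had 7 counts in Ptpn2-null and 6 in control libraries, a ratio of 1.15 with a 95% interval of 0.331 to 4.14. GBP2 in A549 had 35 counts in Ptpn2-null and 46 in control libraries, a ratio of 0.751 with a 95% interval of 0.469 to 1.19.

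In A375 under vehicle, as labelled, GBP2 was lower in the libraries labelled Ptpn2-null (0.978, 1.06 and 1.72 CPM) than in those labelled control (3.14 and 3.36 CPM), a log2 fold change of -1.35 ± 0.35 (adjusted p = 0.0011). GBP3 was called higher there (5.03, 3.17 and 3.84 CPM in the libraries labelled Ptpn2-null, 2.24 and 2.44 CPM in those labelled control, 0.77 ± 0.30, adjusted p = 0.042), with adjusted p between 0.022 and 0.223 over the alternatives. Those 2 calls, 1 in each direction, stood beside 21.1% of tested genes. GBP1 had 6.98, 6.74 and 6.75 CPM in the libraries labelled Ptpn2-null and 8.82 and 8.55 CPM in those labelled control, without overlap, and missed the threshold (-0.34 ± 0.17, adjusted p = 0.175), as did GBP4 and GBP5. Because PTPN2 goes against the labels in these libraries, neither direction can be assigned to a genotype.

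Whether the IFNg response itself differed between genotypes depended on the line. In HT29 the response was smaller in Ptpn2-null cells for GBP1 (difference of log2 responses -2.43 ± 0.32, adjusted p = 1.38e-10), GBP2 (-0.65 ± 0.12, adjusted p = 1.34e-05) and GBP4 (-2.56 ± 0.21, adjusted p = 1.37e-18), 3 of 5 genes at a background of 19.1%. These genes had the higher vehicle levels in Ptpn2-null cells described above, and GBP2 and GBP4 also had higher IFNg levels there. The GBP3 difference was -0.16 ± 0.11 (adjusted p = 0.386).

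In MelJuSo the response was larger in Ptpn2-null cells for GBP1 (2.83 ± 0.69, adjusted p = 5.03e-04), GBP2 (2.56 ± 0.95, adjusted p = 0.016) and GBP3 (1.50 ± 0.18, adjusted p = 2.89e-12), at a background of 35.5%. The GBP2 call rested on control vehicle replicate 2, the library with 8 counts: without it the difference was 0.22 (adjusted p = 0.9998), with 1 count then left in that vehicle group. GBP4 and GBP5 had a vehicle group with no count and are not given a value; edgeR called neither, and DESeq2 called GBP4 (adjusted p = 0.027). In A549 none of the 5 was called by edgeR or DESeq2, at a background of 11.3%, with 2 of 5 at an unadjusted p under 0.05. There the GBP1 difference was 0.93 ± 0.80 and the GBP3 difference 0.24 ± 0.28, and the GBP2 difference was 0.88 ± 0.34 (adjusted p = 0.076), and it passed the threshold without Ptpn2-null vehicle replicate 2 (1.31, adjusted p = 0.032). GBP4 also passed without control vehicle replicate 1 (adjusted p = 0.043).

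The make-up of the 5 genes' counts within a library does not depend on scaling between libraries, though longer transcripts yield more reads, so only the same gene is compared here. GBP1 made up 38.97% to 40.8% of the 5 genes' counts in A375 Ptpn2-null libraries under IFNg and 66.3% to 67.1% in A375 control libraries. The GBP4 share there was 24.3% to 25.6% in Ptpn2-null and 6.09% to 6.58% in control libraries, and the GBP5 share 23.5% to 23.7% in Ptpn2-null and 12.3% to 12.7% in control libraries. The 2 groups of A375 libraries thus differed in proportions as well as in level, without overlap for these 3 genes.

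The number of GBP4 counts per GBP1 count was higher in Ptpn2-null than in control libraries in each of the 4 lines. It was 0.595 to 0.657 in Ptpn2-null and 0.0907 to 0.0985 in control libraries of A375, 1.41 to 1.53 in Ptpn2-null and 0.811 to 0.869 in control libraries of A549, 2.12 to 2.17 in Ptpn2-null and 1.60 to 1.68 in control libraries of HT29, and 0.123 to 0.155 in Ptpn2-null and 0.0288 to 0.0631 in control libraries of MelJuSo. The GBP5 to GBP1 ratio was likewise higher without overlap in each line, with means of 0.589 in Ptpn2-null and 0.188 in control libraries of A375, 0.160 in Ptpn2-null and 0.116 in control libraries of A549, 0.863 in Ptpn2-null and 0.464 in control libraries of HT29, and 0.115 in Ptpn2-null and 0.0162 in control libraries of MelJuSo. The GBP2 to GBP1 ratio did not keep 1 direction: its mean was 0.255 in Ptpn2-null and 0.166 in control libraries of A375 and 0.342 in Ptpn2-null and 0.250 in control libraries of HT29, but 0.234 in Ptpn2-null and 0.370 in control libraries of A549 and 0.308 in Ptpn2-null and 0.514 in control libraries of MelJuSo. In MelJuSo control libraries the GBP4 ratio rests on 6, 9 and 14 GBP4 counts and the GBP5 ratio on 0, 7 and 4 GBP5 counts. Both genes passed the filter in MelJuSo only through the Ptpn2-null IFNg libraries. All ratios in this paragraph are a description and were not tested.

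**Figure D5:**
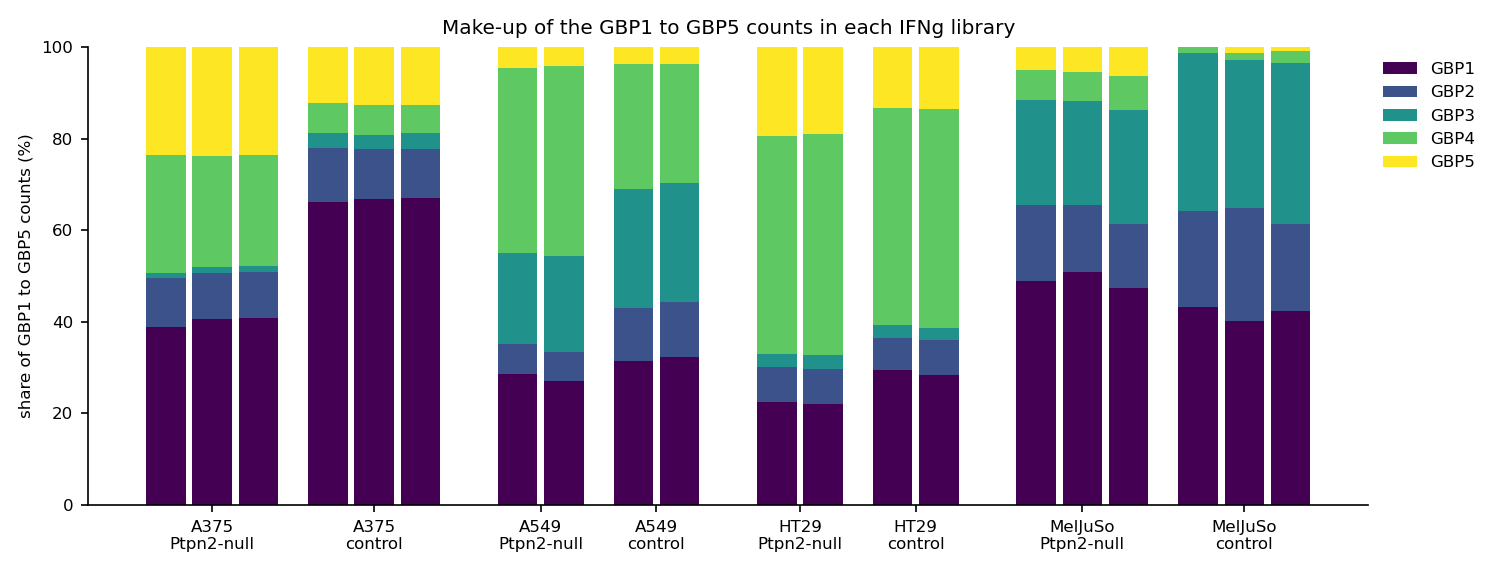
Share of each gene (colours) in the summed counts of GBP1 to GBP5 (vertical axis, %) in each IFNg library (bars), with Ptpn2-null left of control in every line. GBP1 fills 66.3% to 67.1% of the bar in A375 control libraries and 38.97% to 40.8% in A375 Ptpn2-null libraries, and the GBP4 share is larger in HT29 (47.25% to 48.1%) than in A375, A549 or MelJuSo.

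Other genes of the pathway moved with different strength. Of 7 upstream signalling genes, which run from the receptor to the induced regulators, 5 were called higher and 2 lower under IFNg in A549 control cells, 7 higher in HT29 control cells and 3 higher in MelJuSo control cells, where 47.6%, 59.4% and 11.5% of all tested genes were called. IRF1, a transcription factor that binds promoters of this family, averaged 267 ± 6.07 CPM under IFNg and 12.6 ± 2.30 CPM under vehicle in A549 control cells, and 119.5 ± 5.62 CPM under IFNg and 4.06 ± 1.15 CPM under vehicle in MelJuSo control cells. SOCS1, a feedback inhibitor of JAK kinases, was 2.22 higher under IFNg in A549 and 1.29 higher in MelJuSo control cells on the log2 scale, and in HT29 it had 876 counts under IFNg and 3 under vehicle. JAK2 was 4.76 higher under IFNg in HT29 control cells on the log2 scale. Under IFNg, Ptpn2-null against control cells gave 6 of 7 higher in A375 (50.8% of all tested genes called), 4 of 7 higher in A549 (24.3%), 4 higher and 1 lower of 7 in HT29 (41.9%), and 5 higher and 1 lower of 7 in MelJuSo (51.2%).

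Of 5 other interferon-inducible GTPases (GBP6, GBP7, IRGM, MX1 and MX2), 2 were tested in A549, 3 in HT29 and 1 in MelJuSo, and 2, 3 and 0 of these were called higher under IFNg in control cells, beside the same shares of all tested genes. The antiviral dynamin-like genes MX1 and MX2 averaged 1009 ± 1.80 and 387.5 ± 2.26 CPM under IFNg in HT29 control cells, against 13.9 ± 1.65 and 3.35 ± 0.708 CPM under vehicle. In A549 control cells MX1 averaged 10.0 ± 0.114 CPM under IFNg and 0.823 ± 0.0695 CPM under vehicle, and MX2 had 34 counts against 1. GBP7 reached 9 counts in each HT29 control library under IFNg, at least 6.61-fold over a vehicle group with no count, and in A375 it had 27, 24 and 33 counts in Ptpn2-null and 1 in each control library under IFNg.

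Of 7 genes whose products act with these proteins in the cytosol, 4 of 5 tested were called higher under IFNg in A549 control cells, 6 of 6 higher in HT29 and 4 higher and 1 lower of 5 in MelJuSo, beside those shares, with median log2 changes of 1.41, 4.35 and 0.49. The one called lower was PIM1, a kinase that phosphorylates GBP1 (588 counts under IFNg and 726 under vehicle). APOL3, which breaks up the bacterial membrane on targets coated by GBP1, had 616 counts against 0 in A549 (at least 196-fold higher), 2042 against 17 in HT29 and 86 against 0 in MelJuSo (at least 29.3-fold higher). CASP4, the caspase that senses lipopolysaccharide on the coat, averaged 14.9 ± 2.21 CPM under IFNg and 5.70 ± 0.172 CPM under vehicle in A549, and 53.3 ± 3.98 CPM under IFNg and 38.3 ± 3.40 CPM under vehicle in MelJuSo. CASP1, the inflammasome protease, had 161 counts against 2 in A549 and 176 against 0 in HT29, and AIM2, a sensor of cytosolic DNA, 1120 against 1 in HT29 and 228 against 1 in MelJuSo.

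Of 5 prenylation genes, which attach or process the lipid that anchors GBP1, GBP2 and GBP5 to membranes, 1 was called higher and 1 lower under IFNg in control cells of A549 (5 tested, 47.6% of all tested genes called) and of HT29 (4 tested, 59.4% called) and none of 5 in MelJuSo (11.5% called), no more than the share of all genes. ICMT, the enzyme that methylates the prenylated end, averaged 168.4 ± 3.36 CPM under IFNg and 213.8 ± 3.25 CPM under vehicle in A549, and 246.9 ± 7.79 CPM under IFNg and 366.7 ± 13.5 CPM under vehicle in HT29. FNTA, the subunit shared by the enzymes that add farnesyl and geranylgeranyl groups, was 0.36 higher in A549 (adjusted p = 9.7e-04) and 0.25 higher in HT29 (adjusted p = 0.0498) on the log2 scale.

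The genes most like each member over the 16 group means were found by Pearson correlation of log2(CPM + 0.5) among 15322 genes, as a description; the groups share libraries of 1 line and all follow the stimulus. For GBP1 they were APOL3 (0.974), APOL6 (0.970) and IRF1 (0.966), for GBP2 PARP14 (0.956), IRF1 (0.944) and HLA-H (0.943), and for GBP3 DNPEP (0.966), CTSO (0.947) and TRIM21 (0.943). For GBP4 they were XAF1 (0.983), PARP14 (0.980) and SLC15A3 (0.977), and for GBP5 the pseudogene GBP1P1 (0.989), LOC100131733 (0.975) and STAT2 (0.970). Among the 5 genes the highest correlation was that of GBP1 with GBP5 (0.945) and the lowest that of GBP3 with GBP5 (0.785). GBP1P1 itself had 155, 121 and 196 counts in Ptpn2-null and 49, 52 and 31 counts in control libraries of A375 under IFNg.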

How the data were processed

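Values were deposited by the authors as raw read counts per gene, whole numbers for 23227 genes in 39 human libraries. HTSeq 0.6.1p1, Bowtie2 2.2.4 and Trimmomatic 0.33 are named, with build hg19, in the submitters' processing notes; neither strand setting nor annotation is stated in the labels. Libraries were grouped by the labels' line, guide and stimulus. Each line was fitted with 1 mean per group in edgeR 4.0.16 (R 4.3.3; filterByExpr, TMM, quasi-likelihood F test, Benjamini-Hochberg adjustment over all tested genes, threshold 0.05), and the comparisons among lines in 1 fit of all 39 libraries. Standard errors come from the information of the fit. CPM are scaled by TMM over the 39 libraries, whose totals set the precision. A group with 0 counts gives a bound against 3 counts over the group; against 1 to 3 counts, a ratio is given with its 95% interval (exact binomial, counting error only). The test code was checked on simulated data. Alternatives were DESeq2 1.42.0, RLE factors, no filter, a replicate block, only the compared groups, leaving out each library or A375, and plain CPM; comparing A375 with each vehicle group alone was added after the data were seen. All 5 members were named in every comparison; up to 3 called genes of each other list with the largest change in A549, HT29 and MelJuSo control cells, and the 3 genes most like each member, were named, apart from an item that is not reported here; values of GBP7 and GBP1P1 in A375 were given after they were seen. The members and lists were chosen with earlier results of these data known. No human sequence or transcript length was used, so levels are not compared between genes.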

Additional observations from a re-analysis of the deposited data

Results flagged for a closer look

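Effects that differed between groups under the same contrast are listed here with their values, without weighing any explanation. The genotype difference under IFNg differed among the 4 lines for all 5 genes, with F values of 644 for GBP1, 293 for GBP2, 55.8 for GBP3, 1534 for GBP4 and 644 for GBP5. The response to IFNg differed among the lines with F values of 133 for GBP1, 31.7 for GBP2, 78.2 for GBP3 and 29.4 for GBP4. Without A375 the F value of GBP4 was 1.89 (adjusted p = 0.238, edgeR quasi-likelihood F test). Between genotypes, the log2 response differed (Ptpn2-null minus control) by -2.43 for GBP1, -0.65 for GBP2 and -2.56 for GBP4 in HT29, and by 2.83 for GBP1, 2.56 for GBP2 and 1.50 for GBP3 in MelJuSo. The MelJuSo value of GBP2 was 0.22 (adjusted p = 0.9998) without control vehicle replicate 2. For GBP1 the signs ran opposite ways in HT29 and MelJuSo, and that contrast between the lines was not tested by itself. Groups of 2 or 3 libraries were too small to look for outlying libraries.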

How the results depend on the processing

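Most calls of the 5 genes held under the alternatives tried: 1715 single values kept their direction and side of the threshold, 6 passed it, 13 lost it and none that was called reversed. In the A375 vehicle comparison as labelled, the 2 members called became 1 without the filter, with DESeq2, with a replicate block, with a fit of just those groups, and 1 to 2 when a library was left out, GBP3 being the one lost (adjusted p = 0.050 with the block, 0.105 with DESeq2). In MelJuSo control cells 3 members were called under IFNg with a fit of just the compared groups, because GBP4 and GBP5 then fail the filter, and 4 to 5 with a library left out. In the A549 difference of responses 0 to 1 members were called with a library left out. The same range was 4 to 5 for the HT29 genotype difference under either stimulus and 2 to 4 for the MelJuSo difference of responses; GBP5 was called in HT29 under vehicle without Ptpn2-null replicate 1 (adjusted p = 0.029). GBP4 joined the calls of the MelJuSo difference with DESeq2 (adjusted p = 0.027) and without control vehicle replicate 1 (0.049).

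Same-numbered libraries deviated from their group means with correlations of -0.014 to 0.090. Between genotypes, 6 of 6, 5 of 6 and 6 of 6 libraries correlated best with their own number in A375 and MelJuSo under IFNg and MelJuSo under vehicle. Small correlations cannot show that pairing is absent, so whether the numbers pair the samples is not settled. The main fits did not use the numbers. The replicate block changed the members called only in A375 under vehicle, and raised the genes called in MelJuSo under vehicle to 311 from 201. All 30 replicate pairs differed beyond sampling noise (chi-square per gene 1.14 to 1.98).

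Counts of all called genes moved by over 1.5 times in these cases. DESeq2 gave 1481 in place of 2831 in A375 under vehicle; in A549, 4572 in place of 7047 (IFNg in Ptpn2-null), 3946 in place of 6272 (IFNg in control), 95 in place of 388 (vehicle), 1424 in place of 3197 (genotype under IFNg) and 492 in place of 1486 (difference of responses); in HT29, 1270 in place of 2653 (vehicle), 3221 in place of 5258 (genotype under IFNg) and 1169 in place of 2403 (difference of responses); in MelJuSo, 783 in place of 1412 (IFNg in control) and 108 in place of 201 (vehicle). Only the compared groups gave 366 in MelJuSo under vehicle. In the vehicle comparisons, the counts with a library left out ran between 1763 and 2923 (A375), 134 and 401 (A549), 1626 and 3033 (HT29), and 97 and 243 (MelJuSo); an arm left with 1 library was assumed to vary like the other groups. The cause of these moves was not tested. Plain CPM moved 27 of 80 group levels by more than 1 SD, for GBP1 in HT29 under IFNg to 1700 CPM in Ptpn2-null and 1893 CPM in control cells. Depth limits the vehicle comparisons of GBP1, GBP2, GBP4 and GBP5 in A549 and MelJuSo, which rest on 0 to 46 counts a group.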
